A study of Rattus norvegicus with 27 samples.

Results

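The kinesins are microtubule motors encoded by the *Kif* genes, and their mRNA was followed in cultured rat Schwann cells through differentiation and dedifferentiation. Members were all rows of the cell mRNA count table named Kif followed by a number and, where present, a letter and a further digit, which gave 30 of 17315 genes. They were read as 9 mitotic, 11 transport, 5 ciliary and 5 other kinesins. Of the 30 members, 27 passed the filter on low counts and were tested. *Kif2b* and *Kif28p* had no count in any library, and *Kif21b* reached at most 0.308 counts per 1000000 (CPM) and was not tested. Other kinesins, such as *Kif1a*, *Kif4a*, *Kif14* and *Kif17*, were not analysed here.

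The cells were primary rat Schwann cells, the glia of peripheral nerve, bought from a supplier and used at low passage. Undifferentiated cells were kept without dibutyryl cyclic AMP (dbcAMP), an analogue of cyclic AMP that enters cells. Differentiated cells were starved overnight and then kept for 72 h in DMEM with 1% exosome-depleted serum and 1 mM dbcAMP. Dedifferentiated cells had the same 72 h and then 72 h without dbcAMP in complete medium with 10% exosome-depleted serum, forskolin and neuregulin 1-β1. Medium and serum changed together with the withdrawal of dbcAMP, and the labels do not state in full the medium of the undifferentiated cells at harvest, so the parts of medium, serum and dbcAMP in a difference between stages cannot be told apart. Forskolin itself raises cyclic AMP and neuregulin is a Schwann cell mitogen. Each stage had 3 libraries, labelled as biological replicates. The labels do not say whether these came from separate animals, so the p-values measure only the spread between these cultures.

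Kinesins use ATP to move along microtubules or to take tubulin off microtubule ends. Mitotic kinesins build and length-control the spindle, hold chromosomes and organise the midzone at which a cell divides, and their mRNA is made mainly in the late cell cycle. Transport kinesins carry vesicles, mitochondria, RNA and endosomes outwards, and ciliary kinesins build the cilium or set its length. In Schwann cells, which stop dividing as they form myelin, the transport motors serve a long process that wraps the axon.

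With differentiation most mitotic kinesins that were called rose, though some of these passed the low-count filter through the stages in which they were higher. *Kif19* had the largest change of all members, while transport kinesins were called in each direction about as often as genes at large. In differentiated against undifferentiated cells, 11 of the 27 tested members were called higher and 8 lower (edgeR quasi-likelihood test, Benjamini-Hochberg adjusted over all 10372 tested genes, called at an adjusted p below 0.05). The background is high: 59.6% of all tested genes were called in that comparison, 31.7% higher and 27.9% lower. In dedifferentiated against differentiated cells, 4 members were called higher and 7 lower, beside 46.4% of all tested genes called, 23.2% in each direction. In dedifferentiated against undifferentiated cells, 2 members were called higher and 4 lower, beside 29.4% of all tested genes called, 16.1% higher and 13.3% lower. The comparisons share libraries, so they are not independent of each other. Log2 changes are fitted changes between stages after TMM scaling, whereas CPM values are shares of each library's total, and levels are not compared between genes because gene lengths were not used.

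The 9 libraries held 10058735 to 16212278 counts over 11282 to 11833 detected genes, so that 3 counts, taken as the floor of detection, corresponded to 0.185 to 0.298 CPM. Replicate 3 of every stage was sequenced in another project than replicates 1 and 2. Schwann cell markers were detected in every library, 9 of 9 present in the table, with a summed level of 9200 to 10200 CPM in undifferentiated, 8740 to 11300 in differentiated and 19500 to 22100 in dedifferentiated cells. Fibroblast and perineurial markers summed to 24700 to 29400, 13000 to 16800 and 16600 to 20200 CPM in the same order, while *Lum* was at 0 in all libraries and *Pdgfra* and *Dcn* stayed near the floor. The sum is mostly *Col1a1* and *Col1a2*, which fell with differentiation, and *Pdgfrb* (136, 674 and 321 CPM on average in the same order), *Col3a1* and *Itgb4* rose. Of 8 macrophage markers, 5 were at 0 in every library and the sum never passed 5.09 CPM. Endothelial markers summed to at most 22.5 CPM, with *Cdh5* at 0. The neuronal marker sum was 190 to 516 CPM in undifferentiated, 1430 to 1940 in differentiated and 354 to 463 in dedifferentiated cells. That sum came from the neurofilament genes *Nefl* and *Nefm*, while *Rbfox3*, *Snap25*, *Syt1*, *Isl1* and *Stmn2* averaged at most 0.0902 CPM in any stage. The parts these marker shifts have in the kinesin changes were not tested. In bulk RNA, fewer cells of a type and less RNA per cell cannot be told apart.

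Promoter sequence was read for the members as a description. Of the 7 mitotic kinesins called with differentiation 6 were higher, where 31.7% of all tested genes were called higher and 27.9% lower. Among them *Kif2c*, *Kif18b*, *Kif20a* and *Kif20b* passed the filter through the stages in which they were higher, so this count is not read as support. RefSeq (GRCr8) matched all 30 members by symbol and gave a window from 250 bases before to 50 bases after an annotated start for 24 of them, including all 9 mitotic kinesins but not *Kif19*. Such a start need not be the gene's outermost one. Cell cycle genes are known for the CHR element (TTTGAA or TTTAAA) and the CCAAT box, and cyclic AMP response for the CRE core CGTCA. Each was searched on both strands. TTTGAA or TTTAAA was found in the windows of 7 of 9 mitotic kinesins (77.8%), against 29.6% of all 27457 genes with a window and 28.3% of all 33469 windows. The CCAAT box was in 5 of 9 (55.6%) against 39.6% of genes, and CGTCA in 5 of 9 against 23.0%. *Kif18a* and *Kif18b* lacked the CHR element, and the window of *Kif18b*, which rose with differentiation, held none of the searched letters. *Kif23*, not called with differentiation, held TTTGAA and CCAAT. The letters thus did not follow the direction of change gene by gene. Of the 8 transport kinesins with a window, 1 held TTTGAA, none TTTAAA, 2 CCAAT and 2 CGTCA. Shown 5′ to 3′ on the gene's strand are windows of 3 mitotic kinesins that rose (*Kif11*, *Kif20b*, *Kif2c*) and of the mitotic kinesin that fell (*Kif22*), with the CHR element and the CCAAT box, on either strand, in capitals.
Kif11, chr1:244536617-244536916, + strand: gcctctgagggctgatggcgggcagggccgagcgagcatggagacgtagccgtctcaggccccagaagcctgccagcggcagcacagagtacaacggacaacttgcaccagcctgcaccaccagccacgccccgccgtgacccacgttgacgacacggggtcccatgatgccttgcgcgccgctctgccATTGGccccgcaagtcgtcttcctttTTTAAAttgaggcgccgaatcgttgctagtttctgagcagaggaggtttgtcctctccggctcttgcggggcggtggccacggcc
Kif20b, chr1:241840766-241841065, + strand: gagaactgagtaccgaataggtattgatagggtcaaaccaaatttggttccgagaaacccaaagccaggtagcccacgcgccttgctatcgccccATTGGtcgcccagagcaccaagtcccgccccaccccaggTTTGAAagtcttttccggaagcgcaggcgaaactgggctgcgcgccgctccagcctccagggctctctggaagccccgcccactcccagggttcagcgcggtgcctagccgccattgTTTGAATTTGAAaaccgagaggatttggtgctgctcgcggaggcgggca
Kif2c, chr5:135899163-135899462, − strand: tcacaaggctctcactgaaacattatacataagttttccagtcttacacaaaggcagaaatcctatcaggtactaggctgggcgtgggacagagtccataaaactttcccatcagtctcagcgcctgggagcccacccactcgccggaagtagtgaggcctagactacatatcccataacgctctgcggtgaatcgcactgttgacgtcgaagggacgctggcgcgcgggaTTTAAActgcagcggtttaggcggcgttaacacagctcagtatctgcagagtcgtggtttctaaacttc
Kif22, chr1:191080829-191081128, − strand: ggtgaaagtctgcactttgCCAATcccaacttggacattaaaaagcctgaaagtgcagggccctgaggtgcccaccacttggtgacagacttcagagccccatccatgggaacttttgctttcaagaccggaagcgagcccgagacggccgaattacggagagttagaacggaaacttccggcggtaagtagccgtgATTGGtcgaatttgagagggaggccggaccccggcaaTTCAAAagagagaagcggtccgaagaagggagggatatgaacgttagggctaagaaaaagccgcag

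Counting from −1 at the base just before the start, the *Kif11* window had TTTAAA beginning at −35 and a reverse-strand CCAAT at −61. In the *Kif2c* window shown TTTAAA began at −19. *Kif2c* has a second window in the table, at another annotated start, which holds neither a CHR element nor a CCAAT box, and the window with the element was chosen for display. The *Kif22* window, although the gene moved the other way, also held the letters: a reverse-strand TTTGAA at −16 and CCAAT at −231 and −53. These matches describe the letters of the windows and do not show that a factor was bound there.

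The 9 mitotic kinesins tested were mostly higher in differentiated than in undifferentiated cells, within the limits of depth given below. Of the 9, *Kif2c*, *Kif18b*, *Kif20a*, *Kif11*, *Kif20b* and *Kif15* rose, *Kif22* fell, and *Kif18a* and *Kif23* did not pass the test. Their median log2 change was 1.68, beside 0.05 for all tested genes. For 5 of the 9 the libraries of both stages were fully separate, beside 66.3% of all tested genes. Replicates of the undifferentiated and differentiated stages spread widely and in a shared order. In undifferentiated cells replicate 1 was lowest for 8 of the 9 genes and replicate 3 highest for 8. In differentiated cells replicate 1 was lowest and replicate 3 highest for all 9. In dedifferentiated cells the order was mixed, with replicate 1 lowest for 6 and highest for 2. The summed level of the class was 75.2 to 126 CPM in undifferentiated, 53.9 to 132 in differentiated and 92.2 to 98.8 in dedifferentiated cells. These ranges overlapped. *Kif22* alone held 64.5 to 88.7, 13.5 to 27.4 and 62.0 to 69.8 CPM in the same order, so the sum does not follow the other members.

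**Figure D1:**
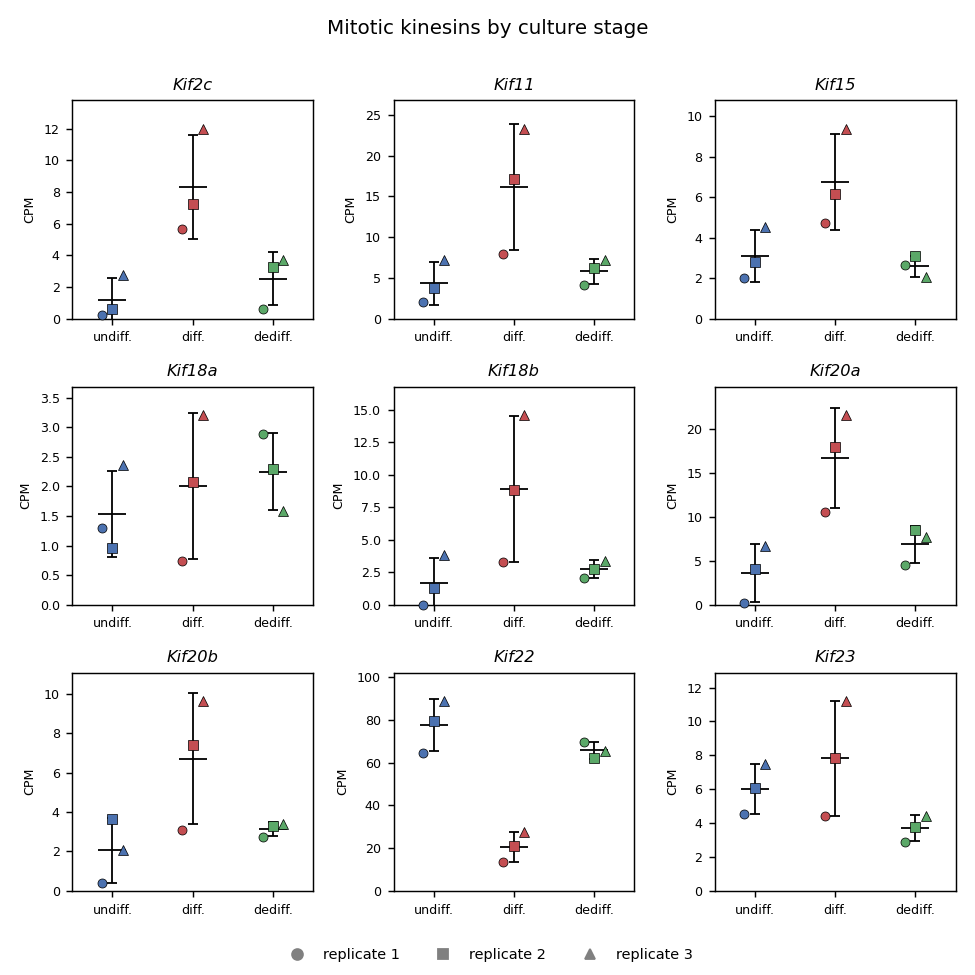
CPM of the 9 mitotic kinesins in each library (points), by stage, with the mean and SD of 3 libraries (bars, cut at 0 where they would go below it); each panel has its own linear axis starting at 0. Differentiated libraries were high for most genes and low for *Kif22*, at 13.5 to 27.4 CPM against 64.5 to 88.7 in undifferentiated cells.

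*Kif11*, the motor that slides spindle microtubules apart, was at 2.01, 3.75 and 7.20 CPM in undifferentiated cells, 7.96, 17.1 and 23.3 in differentiated cells and 4.15, 6.16 and 7.15 in dedifferentiated cells. Every differentiated library was above every library of the other stages. The log2 change was 1.82 ± 0.445 (SE, n = 3 per stage) with differentiation, with an edgeR adjusted p of 0.00483, and −1.45 ± 0.437 with dedifferentiation, with an adjusted p of 0.0197. The latter was lost in edgeR without differentiated replicate 3 (−1.09, adjusted p 0.0877), without dedifferentiated replicate 1 (−1.25, adjusted p 0.0701) or without dedifferentiated replicate 2 (−1.49, adjusted p 0.0516). *Kif15*, a motor that can stand in for *Kif11* on the spindle, had 2.01, 2.79 and 4.51 CPM in undifferentiated, 4.72, 6.17 and 9.38 in differentiated and 2.63, 3.08 and 2.03 in dedifferentiated cells. Its differentiated libraries were again above all others, though the lowest of them exceeded the highest undifferentiated library only slightly. It rose by 1.05 ± 0.337 log2 units (edgeR adjusted p 0.0198) and fell by 1.38 after dbcAMP was withdrawn (adjusted p 0.00788). The rise lost its call in edgeR when undifferentiated replicate 1 (adjusted p 0.0604), undifferentiated replicate 2 (0.0677) or differentiated replicate 3 (0.102) was left out.

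*Kif2c* encodes a depolymerase that corrects microtubule attachment at the kinetochore. It was at 0.242, 0.577 and 2.75 CPM in undifferentiated, 5.67, 7.25 and 12.0 in differentiated and 0.593, 3.28 and 3.69 in dedifferentiated cells. The differentiated libraries stood above all 6 others. Its log2 change with differentiation was 2.66 ± 0.708 (edgeR adjusted p 0.00763), the largest of the mitotic members. The change on withdrawal was −1.71, with an edgeR adjusted p of 0.0552. EdgeR called it with no filter (0.0384), the replicate block (0.00596), the sequencing project as a covariate (0.0206) or only these stages fitted (0.0231). *Kif18b*, which trims astral microtubules, had no count in undifferentiated replicate 1 and 1.25 and 3.80 CPM in the other two, against 3.32, 8.80 and 14.6 in differentiated and 2.03, 2.78 and 3.38 in dedifferentiated cells. The lowest differentiated library lay below the highest undifferentiated library, although the differentiated library was higher in each of the 3 same-numbered pairs. Its rise of 2.29 ± 0.777 (edgeR adjusted p 0.0259) was not called by DESeq2's Wald test (adjusted p 0.0891), nor by edgeR without undifferentiated replicate 2 (0.0802) or differentiated replicate 3 (0.114), or with only these stages fitted (0.0572). On withdrawal *Kif18b* changed by −1.68 (edgeR adjusted p 0.089). That change was called with the replicate block (0.0272), with only the stages compared (0.0188) or without differentiated replicate 1 (0.0434).

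The motors of the midzone and of cell separation were the other group with low counts. *Kif20a*, which brings the chromosomal passenger complex to the midzone, was at 0.161, 4.04 and 6.67 CPM in undifferentiated, 10.5, 18.0 and 21.6 in differentiated and 4.49, 8.45 and 7.67 in dedifferentiated cells. Undifferentiated replicate 1 held only 2 counts of it, and the differentiated libraries were above all others. The rise was 2.12 ± 0.629 log2 units (edgeR adjusted p 0.0134), and the change on withdrawal was −1.27 (adjusted p 0.106). EdgeR called the latter with the replicate block (0.0316) or with only the stages compared (0.00809). *Kif20b*, which acts in the final separation of daughter cells, had 0.403, 3.65 and 2.09 CPM in undifferentiated, 3.09, 7.41 and 9.62 in differentiated and 2.71, 3.28 and 3.38 in dedifferentiated cells. Here the undifferentiated and differentiated libraries overlapped, and the differentiated library was again higher in each of the 3 same-numbered pairs. Its rise of 1.68 ± 0.562 (edgeR adjusted p 0.0244) was lost without undifferentiated replicate 3 (0.0636), differentiated replicate 2 (0.0576) or differentiated replicate 3 (0.0998), within the sequencing project of replicates 1 and 2 (0.23), and with only these stages fitted (0.0558). On withdrawal *Kif20b* changed by −1.09 (edgeR adjusted p 0.123). That change was called with only the stages compared (0.0439) or without differentiated replicate 1 (0.0483). *Kif23*, which with *Racgap1* forms the centralspindlin complex, was at 4.51, 6.06 and 7.46 CPM in undifferentiated, 4.42, 7.87 and 11.2 in differentiated and 2.88, 3.78 and 4.44 in dedifferentiated cells. Its dedifferentiated libraries were all below the undifferentiated ones, and the highest of them was just above the lowest differentiated one. The log2 change was 0.32 with differentiation (edgeR adjusted p 0.399) and −1.07 ± 0.33 with dedifferentiation (adjusted p 0.022). That fall was not called without differentiated replicate 3 (edgeR adjusted p 0.104), dedifferentiated replicate 1 (0.0766) or dedifferentiated replicate 2 (0.057). *Kif18a*, which shortens kinetochore microtubules, stayed between 0.737 and 3.21 CPM in all libraries and passed no test.

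*Kif22* encodes a chromokinesin, a motor that binds DNA and pushes chromosome arms towards the spindle equator, and it went the other way. Its libraries held 64.5, 79.2 and 88.7 CPM in undifferentiated, 13.5, 20.9 and 27.4 in differentiated and 69.8, 62.0 and 65.5 in dedifferentiated cells. The differentiated libraries were far below all others, and the other stages overlapped. It fell by 1.97 on the log2 scale with differentiation (SE 0.199, edgeR adjusted p 1.10e-05) and rose by 1.69 ± 0.199 on withdrawal (adjusted p 6.89e-05). Dedifferentiated and undifferentiated cells differed by −0.28, with a 95% interval of −0.70 to 0.14. In the RefSeq annotation *Kif22* shares its place with a long noncoding RNA gene, and the strand setting of the counting is not given in the sources used here.

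On dedifferentiation, *Kif11*, *Kif15* and *Kif23* fell, *Kif22* rose and the remaining 5 mitotic kinesins did not pass the test. Of the 9 log2 changes 7 were below 0, with a median of −1.27. Shares of all tested genes were 23.2% in each direction here and 29.4% in either direction between dedifferentiated and undifferentiated cells. The libraries did not overlap for 5 of the 9, beside 58.5% of all tested genes. Against undifferentiated cells, none of the 9 was called in edgeR or by DESeq2's Wald test, 1 (*Kif23*, lower) had an unadjusted p below 0.05 in edgeR, and the median log2 change was 0.47. The libraries of these stages were separate for 1 of the 9, *Kif23*, beside 43.9% of all tested genes. Intervals in that comparison were wide: *Kif2c* had a log2 change of 0.95 and *Kif20a* 0.86 without passing the test.

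Depth limits this group. *Kif2c*, *Kif18b*, *Kif20a* and *Kif20b* had fewer than 10 counts in at least 1 undifferentiated library. They passed the filter through the stages in which they were higher. The count of 6 therefore cannot be read as a share of all mitotic kinesins, and the median log2 changes of the class do not stand for them. When 10 counts were required in every library, 5 mitotic kinesins remained, of which 2 were called higher and *Kif22* lower. Without differentiated replicate 3, the library highest for all 9, 3 mitotic kinesins were called higher with differentiation. *Kif11*, *Kif15* and *Kif20a* overlap other genes in the RefSeq annotation (*Ide*, *RGD1311745* and *Cdc23*). Those neighbours had log2 changes of 0.05, −0.08 and −0.33 with differentiation.

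Genes that work with the mitotic kinesins were read from a list of 22, of which 20 were tested. With differentiation 17 of the 20 rose, 1 fell and the median log2 change was 1.99, where 31.7% of all tested genes rose. Of the 20, 11 had fewer than 10 counts in at least 1 undifferentiated library and passed the filter through the stages in which they were higher, so neither the count nor the median stands for the whole list. *Ccnb1*, the mitotic cyclin, was at 0.242, 2.31 and 4.97 CPM in undifferentiated, 14.6, 20.8 and 24.0 in differentiated and 4.24, 6.86 and 5.57 in dedifferentiated cells. It rose by 2.88 log2 units (edgeR adjusted p 9.61e-04), and *Top2a*, the topoisomerase that untangles replicated DNA, by 3.04 (adjusted p 0.00274). *Aurka*, a spindle kinase, rose by 0.93 and *Ect2*, which opens the cleavage furrow, by 2.41. *Numa1*, a spindle pole protein named after its values were seen, was the gene of the list that fell, at −0.43. On withdrawal 10 of the 20 fell and none rose, with a median of −1.28, but DESeq2's Wald test called 6 lower and the libraries of replicates 1 and 2 alone gave 0. Shares of all tested genes in edgeR were 23.2% in each direction on withdrawal and 29.4% in either direction between dedifferentiated and undifferentiated cells. Between dedifferentiated and undifferentiated cells 1 of the 20 was called, *Cit*, a kinase of the midbody, which was lower by a log2 change of −1.41 (edgeR adjusted p 0.009).

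Transcription factors and cofactors that activate or repress cell cycle genes were read as a further list. Of 14 listed, 10 were tested, and with differentiation 5 rose and 1 fell, with a median of 0.43. Among all tested genes 31.7% were called higher and 27.9% lower. *E2f1* rose by 0.99 (edgeR adjusted p 3.97e-04), *E2f3* by 1.47 (0.00246) and *Mybl2*, a late cell cycle activator, by 1.96 (0.00956). Undifferentiated replicate 1 held only 6 counts of *Mybl2*, so its rise is not read as support. Neither the count nor the median stands for the whole list. *Lin37*, a subunit of the DREAM complex that represses cell cycle genes in resting cells, was the gene that fell, with a log2 change of −0.70 (0.00372). On withdrawal 2 rose and 3 fell, beside 23.2% of all tested genes in each direction. *Mybl2* fell by 2.03 (edgeR adjusted p 0.0117).

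Among the ciliary kinesins, *Kif19* had the largest log2 change of all tested kinesins, while of the other 4 *Kif27* rose, *Kif3a* and *Kif3b* fell and *Kif9* did not pass the test with differentiation. *Kif19* encodes a motor that takes tubulin off microtubule ends and limits the length of motile cilia. It had 9, 4 and 14 counts in undifferentiated cells, which is 0.725, 0.385 and 0.916 CPM and just above the floor. Differentiated libraries held 608, 590 and 502 CPM, from 8251, 7650 and 8132 counts. Dedifferentiated libraries held 231, 157 and 147 CPM. No library of any stage overlapped with another stage. The log2 change was 9.57 ± 0.286 with differentiation (edgeR adjusted p 2.97e-09) and −1.65 ± 0.173 on withdrawal (adjusted p 2.99e-05). After 72 h without dbcAMP the level was still higher than in undifferentiated cells by 7.92 ± 0.282 log2 units (edgeR adjusted p 1.31e-07). Of all 10372 tested genes, 16 had a larger log2 rise with differentiation and 28 a larger difference between dedifferentiated and undifferentiated cells. *Kif19* passed the filter through the stages in which it was higher. Its calls and ranks against undifferentiated cells are therefore not read as support, and the counts in each library give the size of the difference. In the RefSeq annotation *Kif19* overlaps *Btbd17* by 415 bases, and *Btbd17* had 0 to 3 counts in each library.

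**Figure D2:**
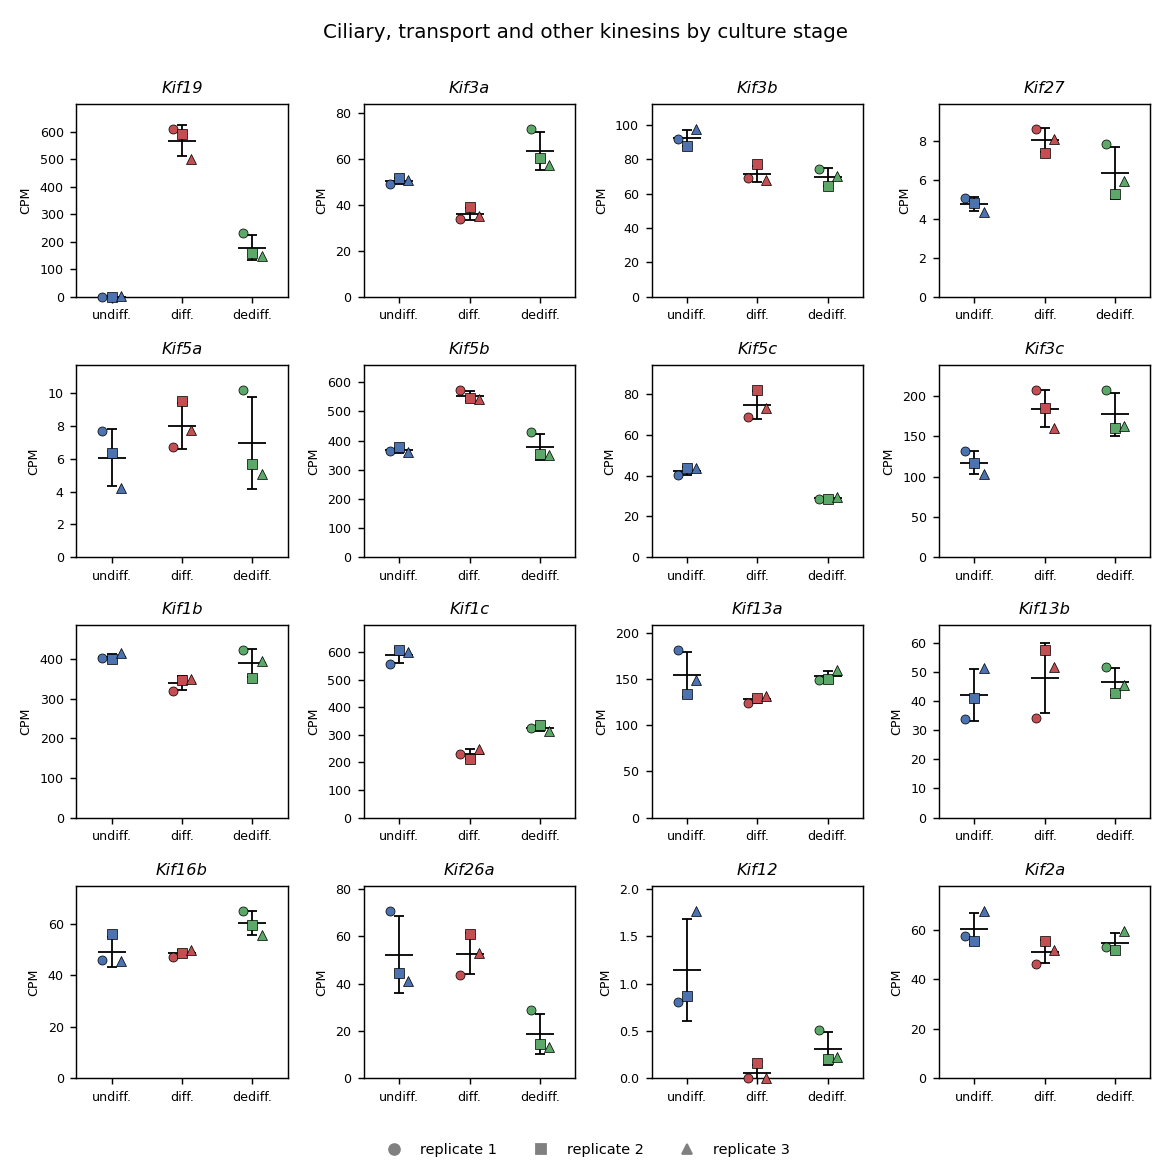
CPM of 16 of the 18 tested transport, ciliary and other kinesins in each library (points), by stage, with the mean and SD of 3 libraries; each panel has its own linear axis starting at 0, and *Kif9* and *Kif26b* are not plotted. *Kif19* goes from at most 0.916 CPM in undifferentiated cells to at least 502 in differentiated cells, while the panels of *Kif13b* and *Kif5a* show overlapping stages.

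*Kif3a* and *Kif3b* are the paired motor subunits of heterotrimeric kinesin-2, which carries intraflagellar transport trains to the tip of a cilium. *Kif3a* was at 49.1, 51.7 and 51.0 CPM in undifferentiated, 33.8, 39.1 and 35.2 in differentiated and 73.0, 60.4 and 57.4 in dedifferentiated cells. The 3 stages did not overlap. It fell by 0.55 on the log2 scale with differentiation (SE 0.105, edgeR adjusted p 0.00102) and rose by 0.83 ± 0.105 on withdrawal (adjusted p 1.05e-04). *Kif3b* was at 92.0, 87.6 and 97.4 CPM, then 69.1, 77.0 and 68.1, and remained at 74.6, 64.2 and 70.0 in dedifferentiated cells. Its fall of 0.43 with differentiation (edgeR adjusted p 0.00124) was therefore not followed by a rise, and dedifferentiated cells were lower than undifferentiated ones by a log2 change of −0.46 ± 0.0853 (adjusted p 0.00257). Within the sequencing project of replicates 1 and 2, neither *Kif3b* fall passed edgeR's test (adjusted p 0.0525 and 0.0761).

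*Kifap3*, the non-motor subunit that joins *Kif3a* and *Kif3b*, followed *Kif3a* with 79.0, 93.2 and 101 CPM in undifferentiated, 44.3, 47.0 and 45.7 in differentiated and 83.3, 85.0 and 95.8 in dedifferentiated cells. Its log2 changes were −1.05 ± 0.0899 (edgeR adjusted p 2.94e-06) and 0.96 (adjusted p 1.38e-05). The undifferentiated and dedifferentiated libraries overlapped. *Kif27*, a relative of the Hedgehog regulator Costal2, was at 5.08, 4.81 and 4.38 CPM in undifferentiated, 8.62, 7.41 and 8.14 in differentiated and 7.88, 5.27 and 5.94 in dedifferentiated cells, and it rose by 0.70 ± 0.203 with differentiation (edgeR adjusted p 0.0122). That call was lost within the project of replicates 1 and 2 (edgeR adjusted p 0.135). In the RefSeq annotation *Kif27* shares 408 bases with the protein-coding gene *Kif27l1*, which is not among the counted genes. The part of *Kif27l1* in the *Kif27* counts was not tested. *Kif9*, a motor of beating cilia and sperm tails, stayed between 0.370 and 1.49 CPM and passed no test.

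Other genes of the cilium were read beside *Kif19*. Of 29 tested primary cilium and intraflagellar transport genes, 4 rose and 14 fell with differentiation, with a median log2 change of −0.39. On withdrawal 10 rose and 2 fell. Shares of all tested genes were 31.7% higher and 27.9% lower with differentiation, and 23.2% in each direction on withdrawal. *Ift57*, a subunit of the IFT-B train, fell by 1.57 (edgeR adjusted p 1.12e-06) and *Ift46*, of the same train, by 0.72 (1.44e-04). *Gli3*, a Hedgehog transcription factor processed at the cilium, fell by 2.37 (3.10e-05), whereas *Smo*, the Hedgehog signal transducer, rose by 0.84 (4.68e-04). Of 17 motile cilium genes listed, 9 were in the table and 4 were tested, of which 2 rose and 1 fell with differentiation. *Dnai2*, a chain of the outer dynein arm, was at 0.725, 1.06 and 2.03 CPM in undifferentiated, 26.2, 28.7 and 32.9 in differentiated and 0.424, 2.58 and 3.46 in dedifferentiated cells. Only its differentiated libraries stood apart. It rose by 4.41 ± 0.472 (edgeR adjusted p 1.62e-05) and fell by 3.74 on withdrawal (7.43e-05), with a log2 change of 0.68 between dedifferentiated and undifferentiated cells (0.397). Undifferentiated replicate 1 and dedifferentiated replicate 1 lay near the floor for *Dnai2*, so its calls are not read as support. With 4 of 9 motile cilium genes tested, the count of that list does not stand for the whole list. *Ccdc39*, a ruler protein of the axoneme, had a log2 change of −1.24 (8.68e-04) and *Tekt1*, a filament of its microtubules, 0.92 (0.0054). *Foxj1*, the master factor of motile cilia, chosen for mention after its values were seen, averaged 0.0269, 0.444 and 0.311 CPM in undifferentiated, differentiated and dedifferentiated cells and was not tested.

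Transport kinesins changed in both directions, at shares near those of all genes. Of 9 tested, *Kif5c*, *Kif3c* and *Kif5b* rose with differentiation, *Kif1c*, *Kif13a* and *Kif1b* fell, and *Kif5a*, *Kif13b* and *Kif16b* did not pass the test, with a median log2 change of 0.12, beside 31.7% of all tested genes called higher and 27.9% lower. On withdrawal 2 rose and 2 fell, with a median of −0.01, beside 23.2% of all tested genes in each direction.

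Conventional kinesin heavy chains are encoded by *Kif5a*, *Kif5b* and *Kif5c* and carry mitochondria, vesicles and RNA granules. *Kif5b*, the ubiquitous heavy chain, was at 364, 377 and 360 CPM in undifferentiated, 574, 545 and 543 in differentiated and 429, 353 and 351 in dedifferentiated cells. The differentiated libraries stood above the others, which overlapped. It rose by 0.53 ± 0.0964 (edgeR adjusted p 7.25e-04) and fell by 0.54 on withdrawal (adjusted p 0.00111). *Kif5c*, which is enriched in neurons, was at 40.2, 43.7 and 43.5 CPM, then 68.8, 82.1 and 73.0, and then 28.7, 28.6 and 29.3. All 3 stages were separate, and dedifferentiated cells ended below undifferentiated ones. Its log2 changes were 0.75 ± 0.0817 with differentiation (edgeR adjusted p 1.82e-05), −1.36 ± 0.0837 on withdrawal (7.86e-07) and −0.60 ± 0.0842 between dedifferentiated and undifferentiated cells (3.89e-04). *Kif5a*, the neuronal heavy chain, stayed between 4.19 and 10.2 CPM with overlapping stages.

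*Kif1c*, which carries dense-core vesicles, integrins and RNA, was the transport kinesin with the largest fall. Its libraries held 557, 606 and 598 CPM in undifferentiated, 229, 213 and 250 in differentiated and 326, 336 and 315 in dedifferentiated cells. The 3 stages did not overlap, and the dedifferentiated libraries lay between the others. The log2 changes were −1.41 ± 0.0824 (edgeR adjusted p 1.88e-07), 0.51 ± 0.0813 (5.41e-04) and, for dedifferentiated against undifferentiated cells, −0.90 ± 0.0815 (2.08e-05). *Kif1b*, a carrier of mitochondria and synaptic vesicle precursors, was at 404, 402 and 415 CPM, then 320, 348 and 351, and then 423, 354 and 396. It fell by 0.32 with differentiation (edgeR adjusted p 0.00618), a call lost within the project of replicates 1 and 2 (0.0725). *Kif3c*, an alternative partner of *Kif3a* best known from neurons, was at 132, 117 and 103 CPM, then 208, 185 and 161, and then 208, 161 and 163. Both later stages were above undifferentiated cells, by 0.59 ± 0.146 (edgeR adjusted p 0.00521) and 0.55 ± 0.146 (0.0175). The second of these differences was lost without undifferentiated replicate 2 (0.52, adjusted p 0.0565), undifferentiated replicate 3 (0.44, 0.0661) or dedifferentiated replicate 1 (0.39, 0.0644). In the RefSeq annotation *Kif3c* shares 35316 bases with the protein-coding gene *Asxl2*, which is not among the counted genes. Its part in the *Kif3c* counts was not tested.

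The endosomal kinesins had small changes. *Kif13a*, a motor of recycling endosomes, was at 181, 134 and 149 CPM in undifferentiated, 124, 129 and 131 in differentiated and 149, 150 and 160 in dedifferentiated cells. The fall of 0.34 (edgeR adjusted p 0.0209) was lost without undifferentiated replicate 1 (−0.19, adjusted p 0.0557), the highest library, and also without differentiated replicate 1 (0.054) or differentiated replicate 2 (0.0507). *Kif16b*, which moves early endosomes outwards, rose by 0.32 ± 0.102 on withdrawal (edgeR adjusted p 0.0247), and leaving out any of 5 libraries in turn, every differentiated one and dedifferentiated replicates 1 and 2, gave adjusted p values of 0.0529 to 0.0681. *Kif13b*, which carries the scaffold Dlg1 and has been studied in the control of myelin thickness, was at 33.8, 40.9 and 51.4 CPM, then 34.3, 57.4 and 51.5, and then 51.7, 42.9 and 45.4. Its stages overlapped throughout. The 95% interval of the log2 change was −0.28 to 0.52 with differentiation and −0.42 to 0.39 on withdrawal.

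**Figure D3:**
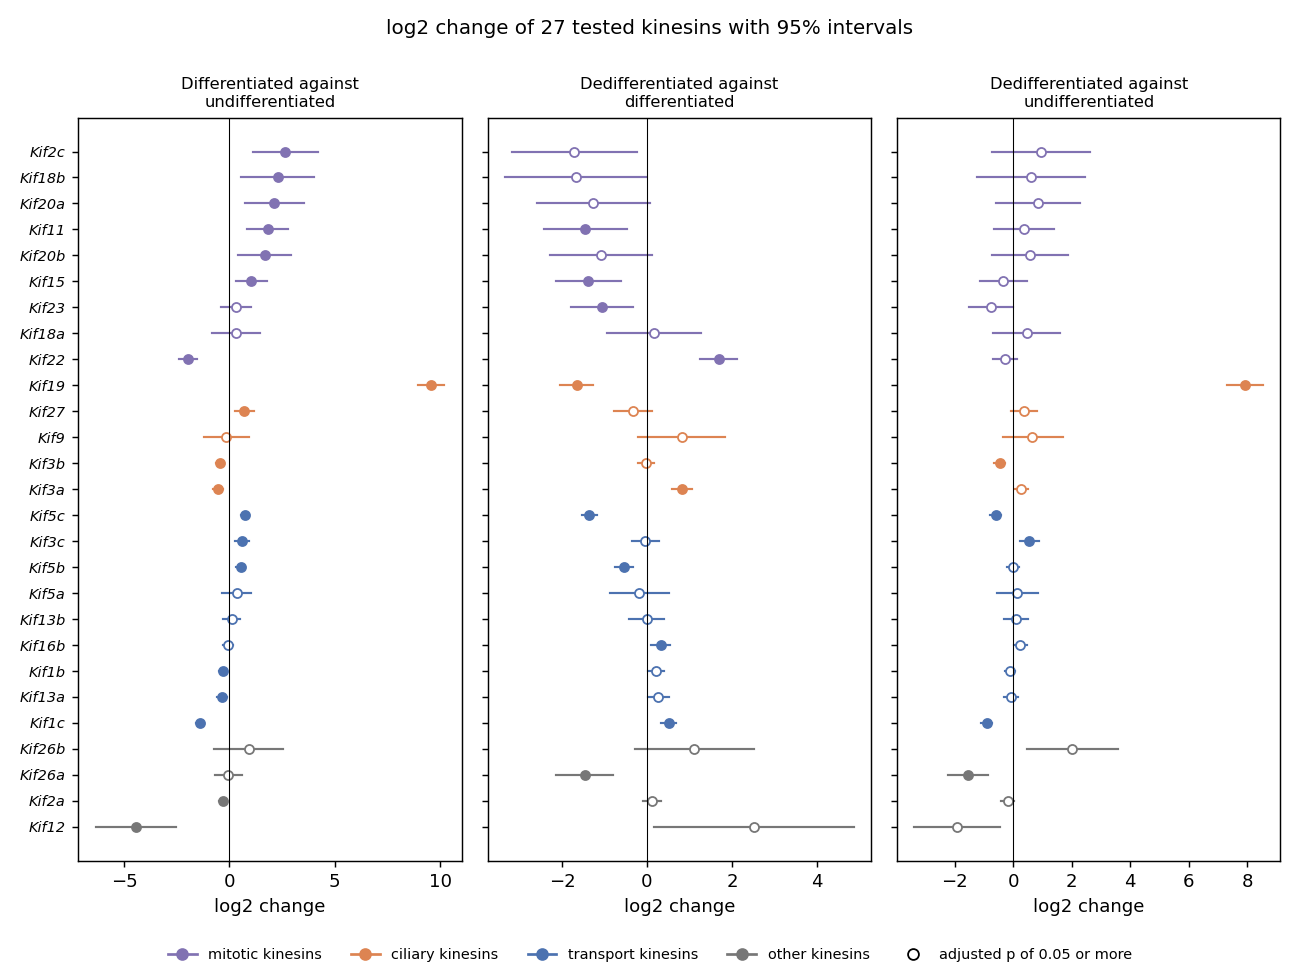
Fitted log2 change of the 27 tested kinesins in each comparison, with 95% intervals, by class; filled points were called at an adjusted p below 0.05 in edgeR and open points were not. *Kif19* lies at 9.57, −1.65 and 7.92, and in the comparison of dedifferentiated with undifferentiated cells no mitotic kinesin is filled.

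Cargo adaptors and light chains, which tie the transport kinesins to what they carry, changed in both directions. Of 14 tested, 5 rose and 7 fell with differentiation, with a median of −0.19, and 4 rose and 3 fell on withdrawal. Shares of all tested genes were 31.7% higher and 27.9% lower with differentiation, and 23.2% in each direction on withdrawal. *Trak2*, which links mitochondria to kinesin-1, was at 562, 695 and 689 CPM in undifferentiated, 236, 273 and 273 in differentiated and 322, 292 and 307 in dedifferentiated cells. It fell by 1.38 (edgeR adjusted p 6.02e-07) and remained lower in dedifferentiated than in undifferentiated cells at −1.12 (1.27e-05). *Fez1*, a kinesin-1 adaptor of axonal transport, was at 14.3, 21.5 and 22.8 CPM, then 71.1, 74.5 and 60.6, and then 33.3, 31.1 and 32.1. Its log2 changes were 1.76 (edgeR adjusted p 2.97e-06), −1.08 (1.67e-04) and 0.67 (0.00712), with all 3 stages separate. *Klc4*, a kinesin light chain, fell by 0.90 (5.50e-05) and rose by 0.84 on withdrawal (1.74e-04).

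The inward motor, cytoplasmic dynein with its activator dynactin, was read as the counterpart of the transport kinesins. Of 17 tested genes, 5 rose and 3 fell with differentiation, and the median log2 change was −0.08. Among all tested genes 31.7% were called higher and 27.9% lower. *Hook1*, which couples dynein to endosomal cargo, was at 53.1, 55.0 and 45.9 CPM in undifferentiated, 5.89, 2.24 and 4.75 in differentiated and 57.0, 35.6 and 39.4 in dedifferentiated cells. The differentiated libraries were far below the others, which overlapped. It fell by 3.63 (SE 0.289, edgeR adjusted p 1.77e-06) and rose by 3.36 on withdrawal (7.48e-06). *Dync1i2*, an intermediate chain, fell by 0.78 (1.84e-05), and of the paired dynein regulators *Nde1* rose by 0.74 (0.00222) while *Ndel1* fell by 0.53 (0.00323).

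**Figure D4:**
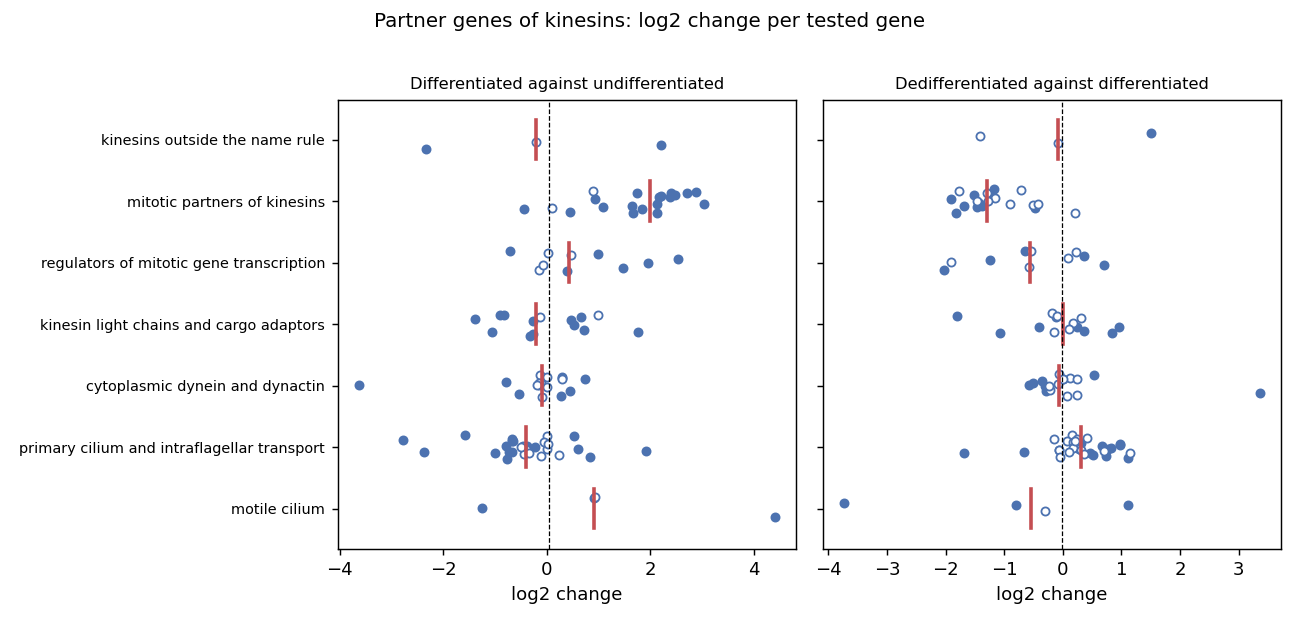
Fitted log2 change of each tested gene in the lists read beside the kinesins, by comparison; filled points were called in edgeR, the red bar is the list's median and the dashed line the median of all tested genes. The mitotic partners have a median of 1.99 with differentiation and −1.28 on withdrawal, and the dynein and dynactin genes −0.08 and −0.06.

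Of the other kinesins, *Kif26a* was the member whose change on withdrawal was called. It encodes a motor-like protein without ATPase activity that binds Grb2 and dampens GDNF signalling through Ret. Its libraries held 70.8, 44.6 and 41.0 CPM in undifferentiated, 43.6, 60.9 and 53.0 in differentiated and 28.6, 14.3 and 13.2 in dedifferentiated cells. Dedifferentiated libraries were below all others, and the other stages overlapped. The log2 change was −1.47 ± 0.304 on withdrawal (edgeR adjusted p 0.00267) and −1.53 ± 0.306 against undifferentiated cells (0.00367). *Kif26b*, its relative, stayed between 0.161 and 2.78 CPM and was not called in edgeR. Its difference between dedifferentiated and undifferentiated cells, 2.01 in log2 units with an edgeR adjusted p of 0.0532, was called by DESeq2's Wald test (adjusted p 0.0411), and in edgeR with the replicate block (0.0381), with the sequencing project as a covariate (0.0457), without undifferentiated replicate 3 (0.0292) or without dedifferentiated replicate 1 (0.0494).

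*Kif2a*, a depolymerase related to *Kif2c* that also acts outside mitosis, was at 57.5, 55.4 and 67.7 CPM, then 46.1, 55.4 and 51.8, and then 53.2, 51.6 and 59.4. Its fall of 0.30 with differentiation (edgeR adjusted p 0.0197) was lost when libraries were scaled by their totals alone (adjusted p 0.0738) and without undifferentiated replicate 3 (0.0888) or differentiated replicate 1 (0.0775) or 3 (0.0524). *Kif12*, known from kidney and liver epithelium, had 10, 9 and 27 counts in undifferentiated, 0, 2 and 0 in differentiated and 6, 2 and 3 in dedifferentiated cells, and it passed the filter through the undifferentiated stage. Summed over libraries, the level per count sequenced was 25.8-fold higher in undifferentiated than in differentiated cells, with an exact 95% interval of 6.75 to 219 that covers counting error only. It is counted among the 8 members called lower with differentiation, but having passed the filter through the stage in which it was higher it had to differ, and nothing is read from that call.

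Kinesins whose names fall outside the Kif number pattern were read for comparison, and 3 were tested. *Kifc1*, the minus-end motor that bundles the spindle, was at 0.403, 3.46 and 4.32 CPM in undifferentiated, 6.93, 16.1 and 16.7 in differentiated and 2.80, 6.56 and 5.42 in dedifferentiated cells. It rose by 2.21 ± 0.574 (edgeR adjusted p 0.00674), and the change on withdrawal was −1.42 (0.0543). Undifferentiated replicate 1 held only 5 counts of *Kifc1*, so its rise has the same limit of depth as the mitotic kinesins and is not read as support. *Kifc3*, a minus-end motor of cell junctions and the Golgi, was at 229, 274 and 246 CPM, then 47.7, 53.0 and 56.1, and then 138, 151 and 151. It fell by 2.32 (SE 0.0905, 1.18e-08), rose by 1.50 on withdrawal (5.78e-07) and stayed below undifferentiated cells at −0.82 (5.86e-05). *Kifc2* passed no test.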

How the data were processed

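Messenger RNA was sequenced from directional libraries made from 10 ng of total RNA, 3 for each of 3 stages. The authors deposited estimated counts per gene, named as Salmon output in the table, of which 1.15% were not whole numbers. The submitters' processing notes list FastQC, Trim Galore, cutadapt, STAR, HISAT2, SAMtools, Picard, bedtools, Salmon, DESeq2 1.26.0 and MultiQC, and the build and annotation are not given in the sources used here. Replicate numbers follow the sample titles, with which the suffixes of the column names disagree. The vesicle tables hold no rows named for kinesins and were not used.

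CPM was each deposited estimated count over its library's total. For tests, counts were rounded, genes passing filterByExpr (minimum count 10) were kept, libraries were scaled by TMM, and all 9 libraries were fitted with edgeR 4.0.16 (quasi-likelihood, R 4.3.3, Benjamini-Hochberg over 10372 genes, called below 0.05). Changes are given with the SE from the fit, and 95% intervals use the t distribution. No replicate block was used in the fit. Libraries with the same number deviated together between the undifferentiated and differentiated stages (correlations of 0.23 to 0.30, all 3 above 0.1), so the numbers pair these; with the block no kinesin call there changed. Alternatives were other scalings, DESeq2 1.42.0, other filters, the block, the sequencing project as a covariate or the project of replicates 1 and 2 alone, the fit without the most abundant genes, only the stages compared, a threshold on the change, and each library left out. All members were described. The genes named from each list read beside them were at most 4 with the smallest adjusted p with differentiation, plus stated exceptions. The members and lists were chosen with earlier results of these data known.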

Additional observations from a re-analysis of the deposited data

How the results depend on the processing

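Of 81 tested kinesin changes 36 were called, and 13 of these kept their call wherever it could be computed, with a library left out or under an alternative. For 7 of the 13 that was all 11 alternatives, and the other 6 (*Kif19* in each comparison, and *Kif12*, *Kif20a* and *Kif2c* with differentiation) had a value in 9 or 10 of them, since filters on low counts removed them in the rest. *Kif19*, *Kif12*, *Kif20a* and *Kif2c* passed the main filter through the stages in which they were higher. Their kept calls against undifferentiated cells are therefore not read as support. Among 387 values of called changes under alternatives 354 kept direction and call and 33 lost the call. Of 216 with a library left out, 28 lost it and 0 turned sign. The threshold on the change was applied to the main fit's own changes, so the calls it removed were fixed by their size. With differentiation it alone removed the calls of *Kif3a*, *Kif3c*, *Kif5b* and *Kif5c*. The same held on withdrawal for *Kif1c*, *Kif3a* and *Kif5b*, and between dedifferentiated and undifferentiated cells for *Kif1c* and *Kif5c*. Uncalled changes gained a call in 20 values under alternatives and in 9 with a library left out.

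The replicate block gave 6 mitotic kinesins lower on withdrawal in place of 3, and 1 (*Kif23*, edgeR adjusted p 0.0276) lower in dedifferentiated than in undifferentiated cells in place of 0. For those comparisons libraries with the same number correlated at 0.08 to 0.21 on withdrawal and 0.03 to 0.15 between dedifferentiated and undifferentiated cells. Over all stages, 17 of 18 comparisons of a library with another stage were best with its own number. A pairing there is weaker but not excluded, so the counts with the block stand beside those of the main fit. Fitting only the stages compared gave 7 lower on withdrawal and 4 in place of 6 higher with differentiation. Within the project of replicates 1 and 2, 0 were lower on withdrawal and 5 were higher with differentiation. Requiring 10 counts in every library left 2 mitotic kinesins higher with differentiation. With libraries left out in turn, mitotic kinesins higher with differentiation numbered 3 to 6 and lower on withdrawal 1 to 5. It was 5 without differentiated replicate 1 and 1 without differentiated replicate 3 or dedifferentiated replicate 1 or 2.

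Non-mitotic kinesins higher in dedifferentiated than in undifferentiated cells were 2, against 4 with library size alone and 1 with 10 counts in every library or within the project. Within that project 2 non-mitotic kinesins were lower with differentiation in place of 7. For absolute changes above 1, non-mitotic counts were 1 higher and 2 lower with differentiation, 0 higher on withdrawal, and 1 higher and 1 lower between dedifferentiated and undifferentiated cells. Left-out libraries gave 5 to 7 lower with differentiation, 2 to 3 higher on withdrawal, and 2 to 3 higher and 4 to 5 lower between dedifferentiated and undifferentiated cells. Library size alone moved the share of higher calls among all genes in that comparison from 54.7% to 62.6%.

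Uncalled log2 changes that turned sign were *Kif26a* with differentiation, 0.01 with library size alone and 0.02 with the block; *Kif9*, 0.09 within the project; *Kif13b* on withdrawal, 0.01 with the block and 0.07 within the project; and, between dedifferentiated and undifferentiated cells, *Kif5b*, 0.04 with library size alone and 0.02 within the project, and *Kif15*, 0.19 within the project. Leaving out a library turned 15 uncalled changes. With differentiation the ranges were −0.23 to 0.25 for *Kif26a*, −0.02 to 0.30 for *Kif13b*, −0.21 to 0.75 for *Kif18a*, −0.02 to 0.60 for *Kif23* and −0.38 to 0.15 for *Kif9*. On withdrawal they were −0.22 to 0.68 for *Kif18a*, −0.17 to 0.06 for *Kif3c*, −0.20 to 0.13 for *Kif13b*, −0.07 to 0.04 for *Kif3b* and −0.56 to 0.02 for *Kif5a*. Between dedifferentiated and undifferentiated cells they were −0.19 to 0.08 for *Kif13a*, −0.01 to 0.26 for *Kif13b*, −0.13 to 0.05 for *Kif5b*, −0.56 to 0.03 for *Kif15* and −0.25 to 0.39 for *Kif5a*. The cause of these shifts was not tested. Members near the floor (*Kif9*, *Kif12*, *Kif18a*, *Kif26b*) are limited by depth, and no statement of equal levels rests on them.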
